A study of Mus musculus with 24 samples.

Results

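The genes described here encode the actins, troponins and tropomyosins of the sarcomeric thin filament: Acta1, Actc1, Tnni1, Tnni3, Tnnt1, Tnnt2, Tnnc1, Tpm1 and Tpm2. They were taken by gene symbol, and all 9 had a row among the 14912 genes of the deposited expression table. Male wild-type C57BL/6J mice received ANG II, the pressor peptide angiotensin II, at 1500 ng/kg/min (n = 12, ANG II group) or saline (n = 12, control group) for 7 days from osmotic mini-pumps placed under the skin. Polyadenylated RNA of the left ventricle was sequenced after the heart had been flushed with saline, and the comparison asked how gene expression in hypertensive left ventricular hypertrophy differs from that of saline-infused hearts. All mice were wild type, and their age was not given in the sources used here. Expression is given as FPKM, a fragment count scaled to transcript length and library size, so that levels can be set side by side between genes of different length. In bulk tissue, fewer cells of a type and less RNA per cell cannot be told apart.

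The thin filament is a double strand of actin along which tropomyosin lies, with 1 troponin complex on each tropomyosin molecule. Troponin C binds calcium, troponin I holds the filament in the blocked state at rest, and troponin T ties the complex to tropomyosin. The adult heart uses Actc1 (cardiac alpha-actin), Tnni3 (cardiac troponin I), Tnnt2 (cardiac troponin T), Tnnc1 (the troponin C shared by heart and slow skeletal muscle) and Tpm1 (alpha-tropomyosin). Acta1 (skeletal alpha-actin), Tnni1 and Tnnt1 (slow skeletal troponins I and T) and Tpm2 (beta-tropomyosin) are best known from skeletal muscle, and Acta1 and Tnni1 are also used by the fetal heart. A rise of Acta1 is a long-known part of the fetal gene programme of the hypertrophied rodent ventricle.

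Sequences before the start sites were examined for motifs bound by factors known to drive muscle genes, in the 250 bases upstream of each RefSeq start (GRCm38.p6). All 9 members had an entry. For Actc1, Tnni1, Tnni3, Tnnt1, Tpm1 and Tpm2 the RefSeq start lies inside the gene as annotated by GENCODE. In their entries 12 to 193 of the 250 bases searched fall in exons of the gene itself. In 1 of the 2 Tnnt2 entries the start also lies inside the gene, and all 250 bases fall in its exons. The bases searched in these entries are thus not all upstream of the gene. The CArG box, the binding motif of serum response factor, was held by 2 of the 9 members, both actins, and by 1.47% of all 32851 promoter entries of the table. CATTCC, the M-CAT motif of TEAD factors, was held by Acta1, Tnnt2, Tnnc1 and Tpm1 and by 12.6% of all entries. TATAAA was held by Acta1 and Tnnt1 and by 12.4% of all entries, and GATAA, the core of GATA sites, by Tnnt2 and by 22.6%. The E-box CANNTG was held by 8 of 9 members and 66.2% of all entries, and the MEF2 site by no member and 2.92%. Both strands were searched, and a match is a description of the letters and not a bound site. Stretches of 3 promoters are shown, those of both alpha-actins because they share the CArG box while their transcripts moved in opposite directions, and that of Tnnt2 because it shares the CATTCC motif with Acta1. Bases are written 5′ to 3′ on the strand of the gene and capitals mark the CArG box, CATTCC and TATAAA. The Acta1 stretch is chr8:123894776-123894975 on the minus strand, with the CArG box at -73 to -64, CATTCC at -46 to -41 and TATAAA at -7 to -2 from the RefSeq start, which lies 24 bases before the GENCODE start of the gene. The Actc1 stretch is chr2:114052888-114053075 on the minus strand, with the CArG box at -47 to -38. This stretch lies inside the gene as annotated by GENCODE. It ends at -13, and the 12 bases nearest the RefSeq start, which fall in an exon of Actc1, are not shown. The Tnnt2 stretch is chr1:135836134-135836333 on the plus strand, with CATTCC at -27 to -22.
Acta1: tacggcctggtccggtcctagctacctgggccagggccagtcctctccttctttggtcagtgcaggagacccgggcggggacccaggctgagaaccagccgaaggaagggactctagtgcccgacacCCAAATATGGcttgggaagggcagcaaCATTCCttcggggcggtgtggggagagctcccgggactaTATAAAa
Actc1: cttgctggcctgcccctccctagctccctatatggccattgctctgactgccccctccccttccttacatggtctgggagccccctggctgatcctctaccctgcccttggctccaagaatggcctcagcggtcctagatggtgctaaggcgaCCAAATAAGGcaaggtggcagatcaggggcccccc
Tnnt2: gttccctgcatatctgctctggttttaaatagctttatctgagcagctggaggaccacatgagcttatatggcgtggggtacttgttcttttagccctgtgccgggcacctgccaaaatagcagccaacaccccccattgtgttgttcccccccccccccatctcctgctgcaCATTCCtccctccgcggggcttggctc

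The deposited values were not raw FPKM. They carried the marks of an adjustment applied in 4 sets, each of 3 ANG II and 3 control hearts with the same numbers (samples 1 to 3, then 4 to 6, 7 to 9 and lastly 10 to 12). Of the values 0.766% were negative. In any pair of samples from the same group and set 215 to 541 genes had identical values, against 0 in any pair from the same group and different sets. Identical values at a whole hundredth of FPKM were left out of these counts. What the sets were is not given in the sources used here. The table held no read counts, so depth was unknown, and the values summed to 460715 to 515185 in the ANG II group and 482319 to 567727 in the control group. The 9 members made up 5.48% to 7.46% of that sum in the ANG II group and 6.57% to 7.66% in the control group. One control library stood apart. Control replicate 2 had a summed level of 8262 FPKM over the atrial myocyte markers, against 10.5 to 1163 in the other control libraries and 346 to 6388 in the ANG II group, where replicate 6 was highest. Since Nppa, the atrial natriuretic peptide that the stressed ventricle also makes, is among these 5 markers with a value, results that differ without the libraries are given beside the values. The part of atrial tissue in them was not tested.

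Of the 9 members, 5 differed between the groups at an adjusted p under 0.05 (limma on log2(FPKM + 1), Benjamini-Hochberg over the 14026 genes whose FPKM averaged 0.1 or more), 2 of them higher and 3 lower in the ANG II group. Acta1 and Tnni1 rose, and Actc1, Tnni3 and Tnnt1 fell. Among all genes tested 33.5% passed, 20.9% higher and 12.6% lower. When an absolute log2 fold change over 0.5 was required as well, Acta1 and Tnni3 passed among the members, and 5.92% of all genes tested did. The median log2 fold change was -0.07 over the 9 members and 0.05 over all genes tested. The split of all calls depended on scaling, with 62.3% of them higher in the ANG II group as deposited, 51.7% after median-ratio scaling and 39.8% after quantile normalization. Without samples 4 to 6 the calls among members fell to Acta1 and Tnni3, and those among all genes from 4697 to 2810. Without samples 10 to 12, 3 members and 3547 of all genes passed. A fit with the replicate number as a block left 3 members and 2824 of all genes. Without control replicate 2 there were 7 members and 5160 of all genes, and without both libraries highest in atrial markers 6 and 4550.

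**Figure D1:**
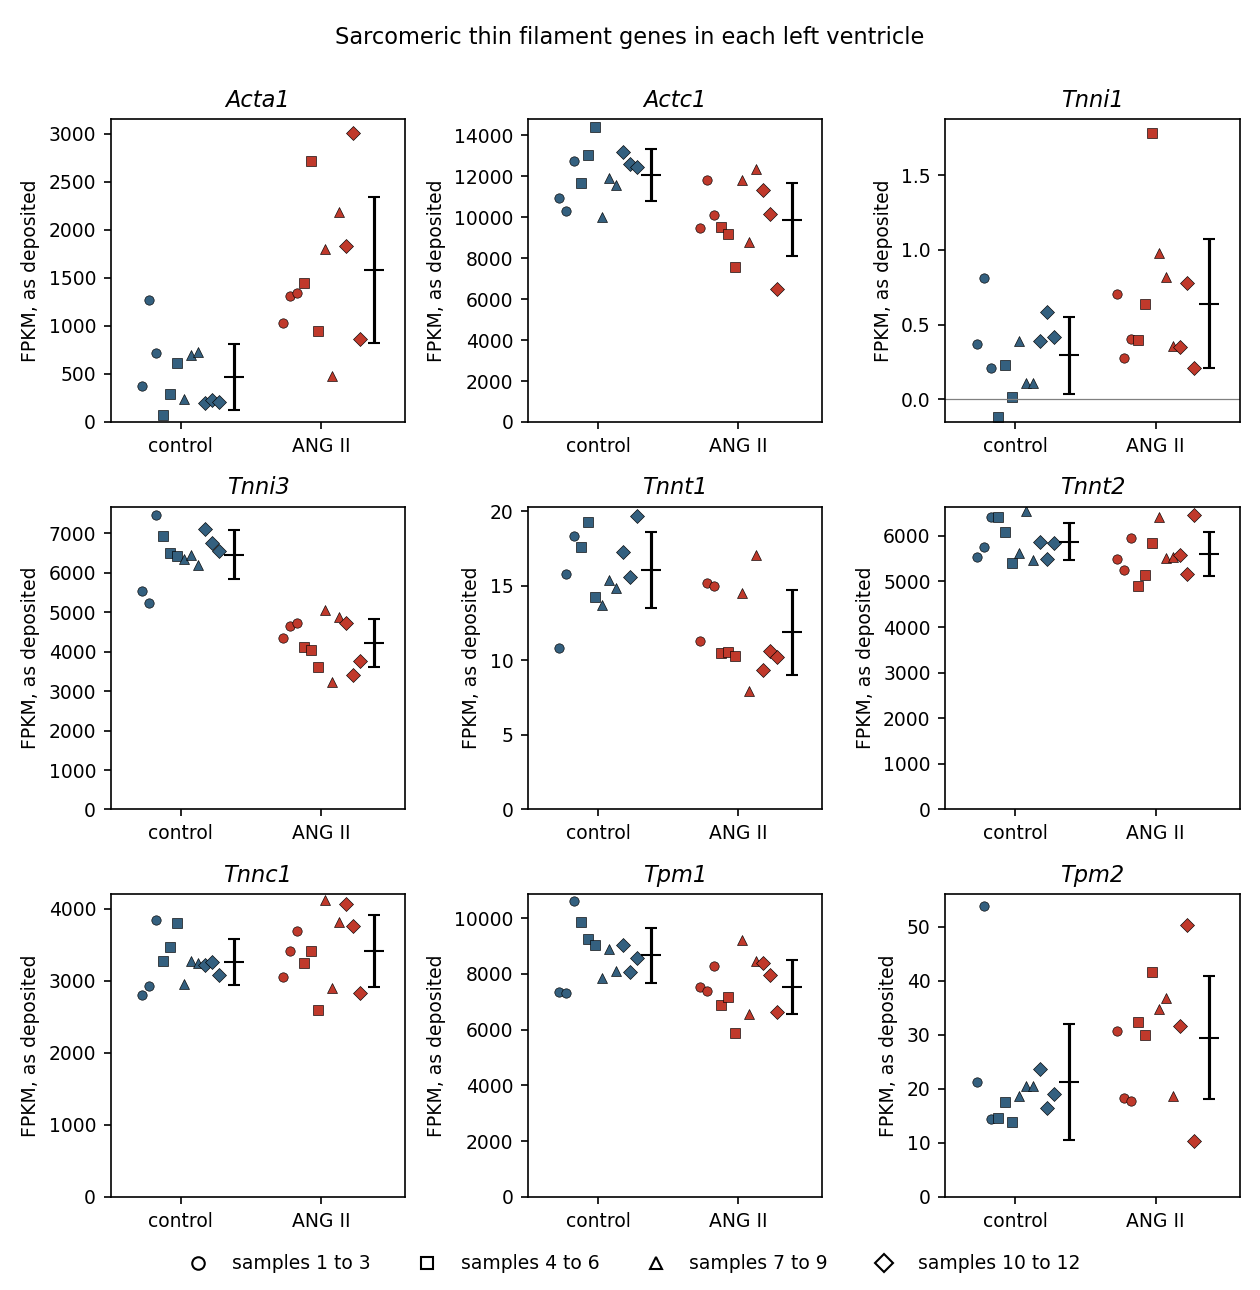
Deposited FPKM (vertical axis, linear, from 0 except for Tnni1, which has a negative value) of the 9 members in every left ventricle of the control (blue) and ANG II (red) groups, with marker shapes for the 4 sets and the bar beside each group for the mean ± SD of 12 samples. All 12 ANG II values of Tnni3 lie below the lowest control value, 8 of 12 ANG II values of Acta1 lie above the highest control value, and the groups of Tnnc1 and Tnnt2 cover much the same range.

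Skeletal alpha-actin was the member with the largest fold change. Acta1 (chr8:123891769-123894751, minus strand, GENCODE vM21 on GRCm38) ranged from 72.7 to 1265 FPKM with a median of 332 in the control group and from 482 to 3003 FPKM with a median of 1394 in the ANG II group. All 12 ANG II hearts exceeded the control median and 8 exceeded the highest control heart, which was replicate 2, so the groups overlapped in their lower ANG II values. The means were 1580 ± 760 and 469 ± 342 FPKM (SD, n = 12 each). The log2 fold change was 1.96 (SE 0.37, adjusted p = 0.000311), and the mean difference of 1110 FPKM had an exact permutation p of 0.00015 when labels were exchanged inside the 4 sets alone (two-sided, n = 12 each). The log2 fold change was 2.12 without control replicate 2 and 2.17 without both libraries highest in atrial markers, and Acta1 stayed past the threshold in every alternative fit. Among all genes ordered by mean FPKM, Acta1 stood at place 156 in the control group and at place 26 in the ANG II group.

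Cardiac alpha-actin, the most abundant member, moved the other way. Actc1 (chr2:114047282-114053548, minus strand) ranged from 10006 to 14385 FPKM (median 12175) in control hearts and from 6504 to 12331 FPKM (median 9826) in ANG II hearts. The lowest 6 ANG II hearts lay below every control heart, and 11 of 12 lay below the control median. The means were 12067 ± 1262 and 9883 ± 1769 FPKM (SD, n = 12 each), a log2 fold change of -0.30 (SE 0.10, adjusted p = 0.0254 by limma). This call was lost without samples 4 to 6 (adjusted p = 0.246), without samples 10 to 12 (0.136) and with the replicate block (0.113). The log2 fold change was -0.35 (adjusted p = 0.0385) after median-ratio scaling and 0.07 (adjusted p = 0.432) after quantile normalization. Quantile normalization sets each value by its rank in the library. By mean FPKM Actc1 stood at place 3 in the control and place 1 in the ANG II group, so that value mainly compares places. The mean difference of Actc1 was -2184 FPKM and that of Acta1 1110 FPKM, and the summed level of the 9 members had a median of 37266 FPKM in the control group and 32623 FPKM in the ANG II group.

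The inhibitory subunit separated the groups completely as deposited. Tnni3 (chr7:4518305-4524229, minus strand), cardiac troponin I, ranged from 5226 to 7459 FPKM (median 6481) in the control group and from 3224 to 5055 FPKM (median 4238) in the ANG II group. Every ANG II heart lay below every control heart. How many of all genes tested were apart in this way was not counted, so this does not mark Tnni3 out among them. The means were 6458 ± 618 and 4211 ± 609 FPKM (SD, n = 12 each), a decrease of 34.8% and a log2 fold change of -0.63 (SE 0.08, adjusted p = 8.06e-06 by limma). The difference was negative in each of the 4 sets, from -1505 to -2842 FPKM, with no overlap between the groups in any set as deposited. Before the adjustment, on the premise given with the set differences, the groups overlapped in samples 1 to 3, where the difference was -1167 FPKM and 1 ANG II heart lay below all controls. On the deposited values the exact permutation p within the sets was 1.25e-05, the smallest that these 160000 relabelings can give. Leaving out 1 mouse at a time gave log2 fold changes of -0.65 to -0.59 with adjusted p values up to 2.56e-05, and quantile normalization gave -0.39 (adjusted p = 4.05e-06). Tnni3 overlaps Dnaaf3 on the same strand, with which it shares 56 of the 2137 different 31-base stretches of its transcripts and none of 150 bases.

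Tnni1 (chr1:135779434-135810989, plus strand), the slow skeletal troponin I of the fetal heart, was close to the lower limit of the table. Its control values ranged from -0.12 to 0.81 FPKM (median 0.30) and its ANG II values from 0.21 to 1.78 FPKM (median 0.52). The negative value, which FPKM cannot take before an adjustment, was that of control replicate 4 and was set to 0 before logarithms. The groups overlapped, with 3 of 12 ANG II hearts above the highest control heart and 10 of 12 above the control median. The differences were 0.896 and 0.513 FPKM in samples 4 to 6 and 7 to 9, and -0.0030 and -0.018 FPKM in samples 1 to 3 and 10 to 12. The highest values within each group were those of ANG II replicate 6 and control replicate 2, the libraries highest in atrial markers. By limma, adjusted p was 0.0659 without the former, 0.0156 without the latter and 0.0197 without both. The log2 fold change of log2(FPKM + 1) was 0.31 (SE 0.12, adjusted p = 0.0391 by limma), a scale that understates the change of so low a gene. The call was lost in 12 of the 24 fits that left out 1 mouse and without samples 4 to 6 (adjusted p = 0.312), without samples 7 to 9 (0.179), with the set as a term (0.060), with the replicate block (0.0930) and after quantile normalization (0.0512).

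Troponin C and cardiac troponin T did not pass the test. Tnnc1 (chr14:31208312-31211729, plus strand), troponin C, ranged from 2801 to 3841 FPKM (median 3258) in the control group and from 2590 to 4124 FPKM (median 3418) in the ANG II group. Its log2 fold change was 0.06 with a 95% interval of -0.11 to 0.22 (adjusted p = 0.609 by limma), and the ANG II range enclosed the whole control range. After quantile normalization the value was 0.24 (adjusted p = 0.00177). Tnnt2 (chr1:135836354-135852260, plus strand), cardiac troponin T, ranged from 5412 to 6555 FPKM (median 5798) in the control group and from 4904 to 6462 FPKM (median 5525) in the ANG II group. Its log2 fold change was -0.07 with an interval of -0.20 to 0.06 (adjusted p = 0.402 by limma). It was -0.12 (adjusted p = 0.276) after median-ratio scaling and 0.12 (adjusted p = 0.0922) after quantile normalization.

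Tnnt1 (chr7:4504570-4516382, minus strand), slow skeletal troponin T, lies 1923 bases from Tnni3 and was expressed at a low level. It ranged from 10.9 to 19.7 FPKM (median 15.7) in control hearts and from 7.93 to 17.1 FPKM (median 10.6) in ANG II hearts, with 7 of 12 ANG II hearts below every control heart. The means were 16.1 ± 2.53 and 11.9 ± 2.83 FPKM (SD, n = 12 each), a log2 fold change of -0.42 (SE 0.11, adjusted p = 0.00363 by limma). The groups were apart in samples 4 to 6 and 10 to 12, where the differences were -6.62 and -7.47 FPKM, and overlapped in samples 1 to 3 and 7 to 9, where they were -1.17 and -1.48 FPKM. The call was lost without samples 4 to 6 (adjusted p = 0.0659) and without samples 10 to 12 (0.0742).

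Neither tropomyosin gene passed the test. Tpm1 (chr9:67022590-67049406, minus strand), the main tropomyosin of the mouse ventricle, ranged from 7313 to 10620 FPKM (median 8734) in the control group and from 5893 to 9209 FPKM (median 7463) in the ANG II group. The lowest 5 ANG II hearts lay below every control heart. Its log2 fold change was -0.20 (SE 0.09, adjusted p = 0.0646 by limma). It was on the edge of the threshold. Adjusted p was 0.0392 without control replicate 2 (log2 fold change -0.23) and 0.0665 without both libraries highest in atrial markers. It was 0.0377 when only genes averaging 1 FPKM or more were tested and 0.0278 without an intensity trend. The log2 fold change was -0.25 (adjusted p = 0.0823) after median-ratio scaling and 0.10 (adjusted p = 0.242) after quantile normalization. Tpm2 (chr4:43514711-43523765, minus strand), beta-tropomyosin, ranged from 13.8 to 53.8 FPKM (median 18.8) in the control group and from 10.3 to 50.3 FPKM (median 31.2) in the ANG II group, and the highest value of all was that of control replicate 2. Its log2 fold change was 0.44 (SE 0.21, adjusted p = 0.109), and 0.57 (adjusted p = 0.0192) without control replicate 2, 0.52 (0.0360) without both libraries highest in atrial markers and 0.67 (0.0228) without samples 1 to 3.

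**Figure D2:**
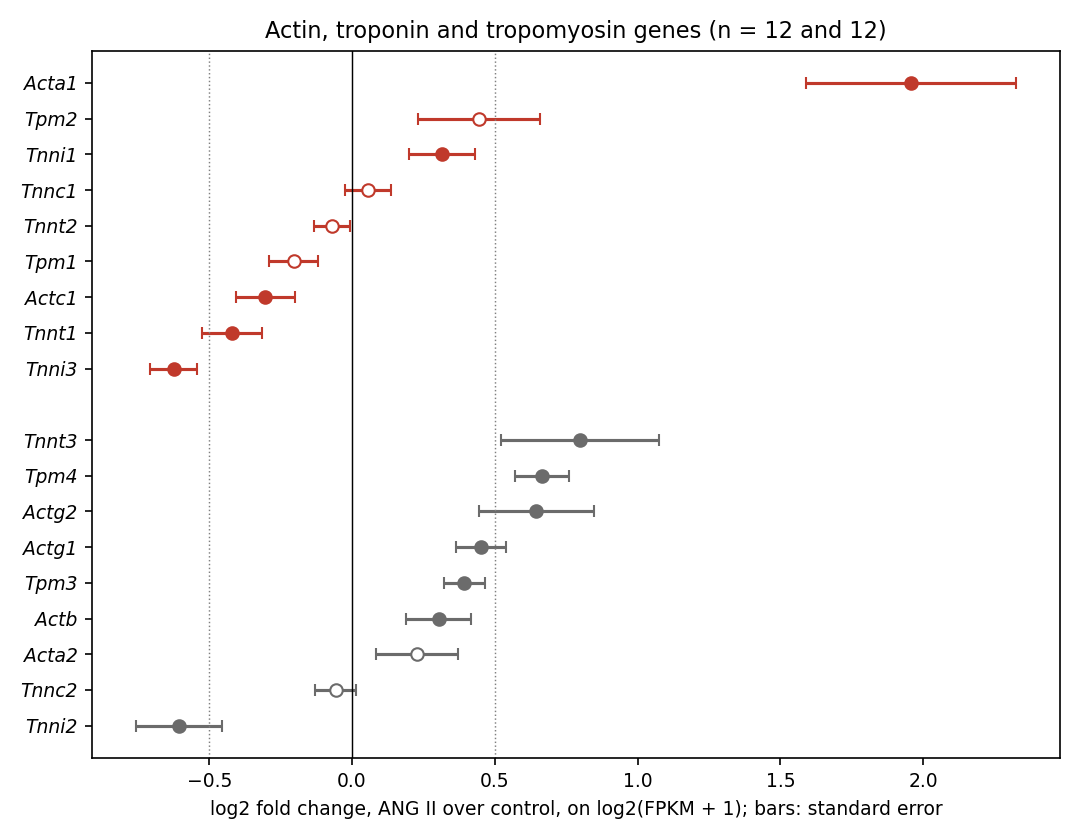
Log2 fold changes of ANG II over control (horizontal axis, log2 scale, bars for the standard error) for the 9 members (red) and 9 other actin, troponin and tropomyosin genes (grey), filled where the adjusted p was under 0.05. Dotted lines mark 0.5 on either side of 0. Acta1 at 1.96 and Tnni3 at -0.63 are the only filled members beyond these lines.

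The paired isoforms were also set against each other within each heart, as a description, from the deposited and so adjusted values. Acta1 made up 0.619% to 10.9% of the FPKM of both alpha-actins in the control group (median 2.80%) and 5.19% to 22.8% in the ANG II group (median 12.5%). In 9 of 12 ANG II hearts this share exceeded that of every control heart. The shares of the other minor isoforms stayed under 1% in every heart. Tpm2 was 0.226% of both tropomyosins at the control median and 0.391% at the ANG II median, and Tnnt1 was 0.274% and 0.206% of both troponin T genes. Tnni1 was 0.00451% and 0.0127% of both troponin I genes.

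**Figure D3:**
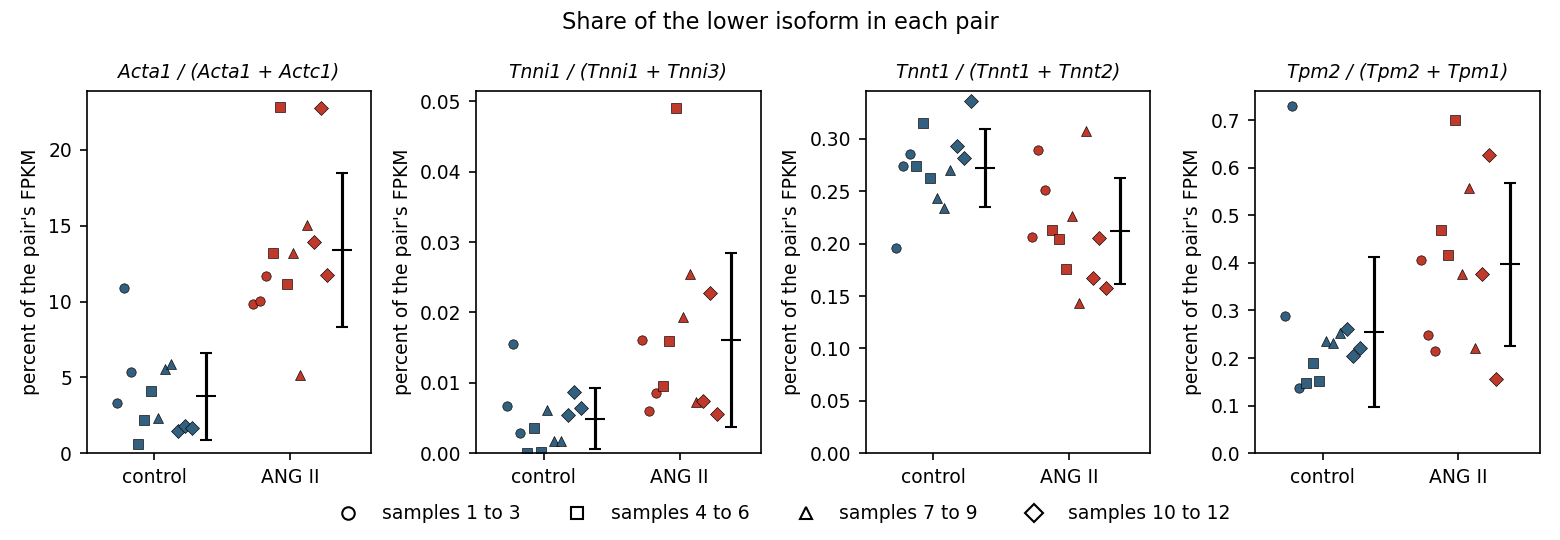
Share of the lower isoform in the summed FPKM of each pair (vertical axes in percent, from 0, with a different scale in each panel), 1 point for each heart in the control (blue) and ANG II (red) groups, marker shapes for the sets and bars for the mean ± SD of 12 samples. The Acta1 share has a median of 2.80% in the control group and 12.5% in the ANG II group, whereas the axes of the other pairs end below 1%.

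In the control group the mean levels ran in the order Actc1, Tpm1, Tnni3, Tnnt2, Tnnc1, Acta1, Tpm2, Tnnt1 and Tnni1. Every control heart kept this order except for Tpm2 and Tnnt1, of which Tpm2 was higher in 7 of 12 hearts, and for Tnni3 and Tnnt2, of which Tnni3 was higher in 9 of 12. Across hearts the control ranges also overlapped for Actc1 and Tpm1 and for Tpm1 and Tnni3. In the ANG II group Tnni3 and Tnnt2 had changed places, and Tnnt2 was higher than Tnni3 in 12 of 12 hearts. In the ANG II group the order was not kept by every heart for Actc1 over Tpm1 and for Tnni3 over Tnnc1, each seen in 11 of 12. Every ratio in this paragraph, not that of Tnni3 to Tnnt2 alone, was picked with the levels already known. The Tnni3 to Tnnt2 ratio of FPKM ranged from 0.908 to 1.23 (median 1.12) in the control group and from 0.581 to 0.884 (median 0.790) in the ANG II group, without overlap. The ratio of Tnni3 to Tnnc1, which rests on the same Tnni3 values, did not overlap either. It was 1.68 to 2.21 in the control group and 0.909 to 1.43 in the ANG II group. That of Tnnc1 to Tnnt2 did overlap, with 0.499 to 0.703 and 0.438 to 0.728. All these orders and ratios rest on deposited values. Differences alone could be worked out before the adjustment, so whether the ratios were apart before it is not known. Tnni3 itself overlapped before it in samples 1 to 3.

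**Figure D4:**
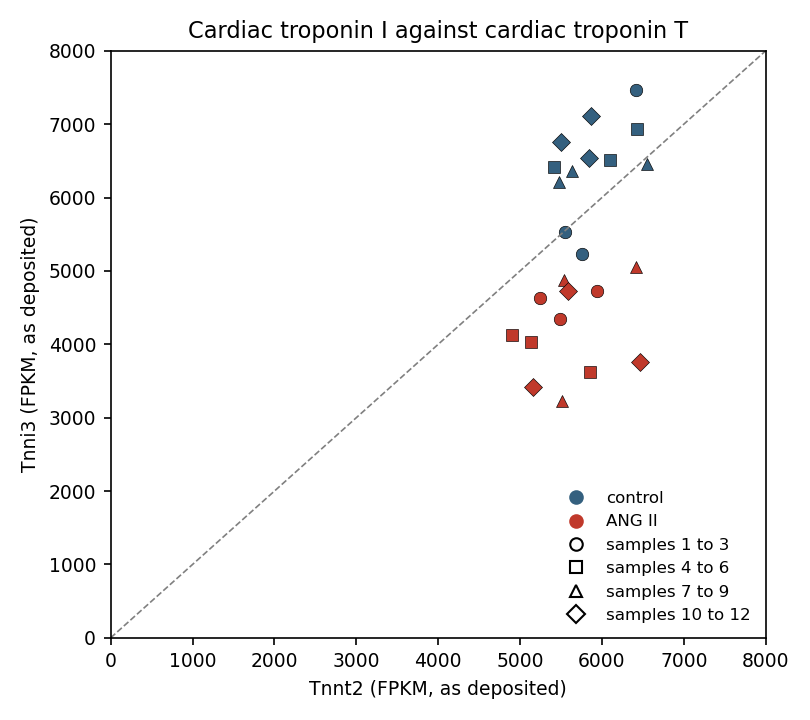
Tnni3 against Tnnt2 (both axes in deposited FPKM, linear, from 0), 1 point for each control (blue) or ANG II (red) heart, with the line of equal levels dashed and marker shapes for the sets. All 12 ANG II hearts lie below the line and 9 of 12 control hearts lie above it, while both groups cover a similar range of Tnnt2.

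Within the 4 sets the differences varied in size. For Acta1 the ANG II mean was higher in every set, with differences of 442, 1376, 936 and 1688 FPKM in the order of the sample numbers. For Actc1 it was lower in every set, with differences of -872, -4280, -181 and -3402 FPKM in the same order. Samples 4 to 6 thus had the largest differences for Actc1, and they had it also for Tpm1, at -2742 FPKM against -209 to -894 in the other sets, and for Tnnc1 they had the only negative one, at -428 FPKM. The interaction of group and set was not past the threshold for any member, with adjusted p from 0.166 for Tnni1 to 0.888 for Tnnt2 (limma), which does not show that the sets agreed. In samples 4 to 6 the activated fibroblast markers summed to a mean of 1609 FPKM in the ANG II and 178 FPKM in the control hearts, and the cardiomyocyte markers to 33532 and 50076 FPKM. Their part in the member differences was not tested. FPKM differences before the adjustment could be worked out for all 9 members on the premise of a shift and a scale for each gene and set and of values written to 0.01 FPKM. The premise also holds a group difference for each gene that the adjustment left in place. Tests on the deposited values take no account of this. The sign before the adjustment differed from the deposited one in 3 of 36 gene and set differences, those of Tnni1 and Tnnt2 in samples 10 to 12 and of Tnnt1 in samples 1 to 3. The same 6 members had an exact permutation p within the sets under 0.05 on both scales, namely Acta1, Actc1, Tnni1, Tnni3, Tnnt1 and Tpm1, with the p of Tpm1 at 0.0151 as deposited and 0.0364 before the adjustment (n = 12 each, unadjusted). This permutation test was run on the members alone, so the share of all genes that would pass it is not known. By limma, 33.5% of all genes tested passed the adjusted p.

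**Figure D5:**
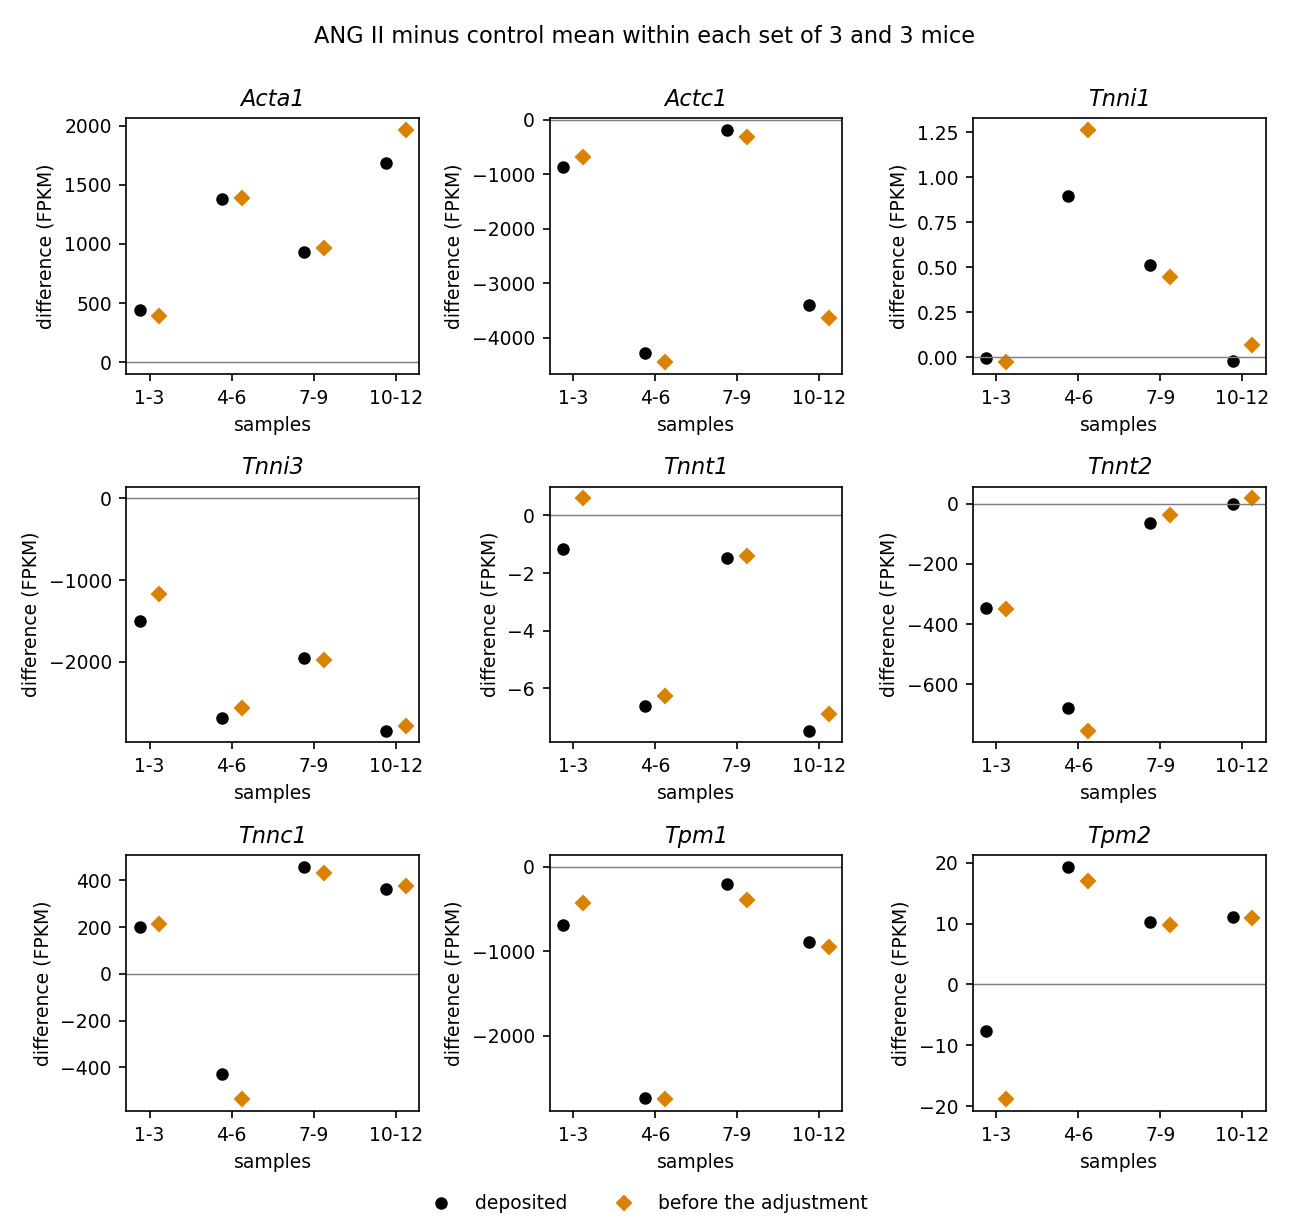
ANG II minus control mean of each member (vertical axes in FPKM, linear, each with its own scale) within the 4 sets of 3 and 3 hearts, as deposited (black circles) and as worked out before the adjustment (orange diamonds). Acta1 lies above 0 and Actc1, Tnni3 and Tpm1 lie below 0 in all 4 sets on both scales, and Tnnc1 is below 0 in samples 4 to 6 alone.

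Levels of several abundant members varied together among hearts of the same group. Of 72 correlations of log2(FPKM + 1), 36 pairs in each group of 12, 3 in each group had an adjusted p under 0.05 for Pearson's r. Tnnc1 and Tpm1 had r = 0.94 and rho = 0.93 in the ANG II group (permutation p = 1e-05, the smallest that 100000 resamples can give, and 7e-05; adjusted p = 0.00072 and 0.00504) and r = 0.81 and rho = 0.81 in the control group (permutation p = 0.00139 and 0.00204, adjusted 0.0200 and 0.0294). Without the 2 hearts farthest from the Tnnc1 median r was 0.90 and 0.79, and with the set means removed it was 0.96 and 0.76. Actc1 and Tnnc1 had r = 0.84 in the ANG II group (rho = 0.82, permutation p = 0.00042 and 0.00177, adjusted 0.0132 and 0.0294) and r = 0.79 in the control group (rho = 0.70, permutation p = 0.00257 and 0.0134, adjusted 0.0308 and 0.0797), and r = 0.76 and 0.68 without the 2 farthest hearts. The remaining 2 were Actc1 with Tpm1 in the ANG II group (r = 0.81, rho = 0.83, permutation p = 0.00129 and 0.00154, adjusted p = 0.0200 and 0.0294, and r = 0.75 without the 2 farthest) and Tnni3 with Tpm1 in the control group (r = 0.85, rho = 0.80, permutation p = 0.00055 and 0.00308, adjusted p = 0.0132 and 0.0370, and r = 0.73 without the 2 farthest). In the ANG II group Tnni3 and Tpm1 had r = 0.73 (permutation p = 0.0072, adjusted 0.0602) and rho = 0.83 (permutation p = 0.00136, adjusted 0.0294). By rho but not by r, Acta1 with Tnnc1 and Tnni1 with Tpm2 also passed in the ANG II group (rho = 0.78 for both, permutation p = 0.00405 and 0.00419, adjusted 0.0377 for both). The points share their library and its scaling.

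The genes most like each member over the 24 hearts were found by Pearson's r of log2(FPKM + 1) among genes averaging 1 FPKM or more, as a description that includes the group difference. For Tnni3 they were Ldhb (r = 0.98), a lactate dehydrogenase subunit of the heart, Etfb (0.98), of the electron transfer flavoprotein, and Atp5c1 (0.98), of the ATP synthase. For Actc1 they were Jph2 (0.94), which ties the T-tubule to the sarcoplasmic reticulum, Mrpl12 (0.94) of the mitochondrial ribosome and Timm50 (0.93) of the mitochondrial import machinery. For Tpm1 they were Popdc2 (0.91), Ak1 (0.91) and Cox6b1 (0.91), and for Tnnc1 Csrp3 (0.91), Hspb6 (0.88) and Trim72 (0.87), which are muscle genes. Acta1 was most like Hspa1l (0.88), Cnksr1 (0.87) and Otulin (0.87), and Tnnt2 had the weakest likeness, to Ap4s1 (0.76) and Khk (0.71). For Tnnt1 the 3 were Slc35e1 (0.82), Pam16 (0.82) and Pttg1 (0.82), for Tnni1 Prr13 (0.90), Slc9a9 (0.90) and Dram1 (0.89), and for Tpm2 Arhgap1 (0.90), Maged1 (0.90) and Gltp (0.89).

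Of the 9 other actin, troponin and tropomyosin genes, 6 rose and 1 fell, and the median log2 fold change was 0.39. The rise was largest in Tnnt3, fast skeletal troponin T, from 0.913 ± 0.757 to 2.83 ± 3.07 FPKM (log2 fold change 0.80, SE 0.28, adjusted p = 0.0288 by limma), and Tpm4, a cytoskeletal tropomyosin, from 54.0 ± 8.47 to 86.7 ± 16.5 FPKM (log2 fold change 0.67, SE 0.09, adjusted p = 1.51e-05). Tnnt3 had 2 negative values set to 0, and its SD in the ANG II group exceeded its mean. Tnni2, fast skeletal troponin I, fell from 2.49 ± 0.878 to 1.33 ± 0.796 FPKM (log2 fold change -0.61, SE 0.15, adjusted p = 0.00355; SD, n = 12 each). The fast skeletal troponins I and T thus moved in opposite directions at levels of a few FPKM. Actg1, Actb, Actg2 and Tpm3, of non-muscle and smooth muscle cells or of many tissues, were the other 4 that rose, and Acta2 (log2 fold change 0.23, adjusted p = 0.223) and Tnnc2 (-0.06, adjusted p = 0.558) did not pass. Without samples 4 to 6, 4 rose and 1 fell, and after quantile normalization 5 rose and 1 fell, Tnnt3 being lost (adjusted p = 0.0640).

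Of 13 genes of thin filament assembly and length, 5 rose and 2 fell, and the median log2 fold change was 0.07. Nrap, a scaffold of myofibril assembly, rose by 0.34 (adjusted p = 0.0117 by limma) and Lmod2, a leiomodin that elongates thin filaments, by 0.33 (adjusted p = 0.0398) on the log2 scale. Tmod4, a pointed-end capping protein, fell by 0.49 (adjusted p = 0.000618) and Lmod3 fell by 0.34 (adjusted p = 0.00916). Of 15 genes of the thick filament, titin and the Z-disc, 3 rose and 4 fell, and the median log2 fold change was -0.01. The largest changes that passed were those of Myh7 (3.36), the slow myosin heavy chain, and Myom1 (0.28), an M-band protein, upward, and of Myl2 (-0.50) and Myl3 (-0.33), the ventricular light chains, downward. Myh7 averaged 415 FPKM in the ANG II and 83.0 FPKM in the control group, had 3 negative values set to 0 and had a log2 fold change of 1.47 without samples 4 to 6. After quantile normalization 6 of the 15 rose and 1 fell, and Myl2 and Myl3 no longer passed (adjusted p = 0.580 and 0.104). Of 16 regulators of the SRF, MEF2, TEAD and GATA families and their partners, 1 rose and 3 fell. Mkl1, an actin-sensing partner of SRF, rose by 0.34 (adjusted p = 0.00395), Hopx, a homeodomain protein that restrains SRF, fell by 0.87 (adjusted p = 1.07e-05) and Nkx2-5 fell by 0.18 (adjusted p = 0.0398), while the log2 fold change of Srf itself was -0.03 (adjusted p = 0.746, limma). Without samples 4 to 6 only Hopx passed among the 16, with Mkl1 at 0.15 (adjusted p = 0.121) and Nkx2-5 at -0.15 (adjusted p = 0.201).

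Marker lists of other cell types were measured beside the members. Skeletal muscle markers had 11 of 16 genes with a value, of which 3 rose, with Mybpc2 (1.35) and Myl1 (0.81) largest, and 3 fell, with Cacna1s (-0.65) and Tnni2 (-0.61) largest. Myh1, Myh2, Myh4, Ryr1 and Mybpc1 were not analysed here, and the list summed to 42.3 to 142 FPKM in the control and 75.8 to 192 FPKM in the ANG II group. Smooth muscle markers rose in 4 of 10, led by Tagln (1.32) and Cnn1 (1.02), with sums of 169 to 370 and 203 to 456 FPKM, and only 1 of the 10 rose without samples 4 to 6. Atrial markers had 1 of 5 past the test, Nppa (6.96), with Myl7, Myl4 and Sln at log2 fold changes of 0.91 to 1.03 and adjusted p of 0.545 to 0.618 and Stard10 at -0.49 (adjusted p = 0.320). Nppa averaged 2050 FPKM in the ANG II and 432 FPKM in the control group, and it, Myl7, Myl4 and Sln each had 7 negative values set to 0. Without samples 4 to 6 the log2 fold changes of Myl7, Myl4 and Sln were -0.085, -0.092 and 0.0059. Activated fibroblast markers rose in 8 of 9, led by Col1a1 (2.77) and Col3a1 (2.63), with sums of 141 to 752 and 519 to 1938 FPKM. Without samples 4 to 6, 5 of the 9 rose, Col1a1 had a log2 fold change of 0.77 and Col3a1 one of 0.39 (adjusted p = 0.0866), and both genes had 3 negative values set to 0. Cardiomyocyte markers rose in 1 of 10, Mybpc3 (0.21), and fell in 5 of 10, with Mb (-0.59) and Ckm (-0.56) largest, with sums of 38360 to 54244 FPKM in the control and 27792 to 44257 FPKM in the ANG II group. After quantile normalization 2 of the 10 rose and 2 fell, and Mb had a log2 fold change of -0.15 (adjusted p = 0.0710). Values in parentheses are log2 fold changes. The ventricular light chains Myl2 and Myl3 had means of 13232 and 6943 FPKM in the control group, so the defining transcripts of the labelled tissue were present. The part of cell composition in the member differences was not tested.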

How the data were processed

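RNA-seq of the left ventricle was available from 12 ANG II and 12 control mice. The study describes more samples in each group, and those beyond the 12 were not analysed here. The authors deposited FPKM values for 14912 genes, 1 column for each mouse. HISAT, Bowtie2 and RSEM are named in the submitters' processing notes without versions or roles, and the genome build is not given in the sources used here. The deposited FPKM values had been adjusted in 4 sets of 3 and 3 mice, which is inferred from ties and negative values. Depth was unknown. The labels' extraction text names another cell type than the heart, and the tissue label was followed.

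Samples were grouped by their labels. Negative values were set to 0, genes with a mean FPKM under 0.1 were left out, and log2(FPKM + 1) was tested with limma 3.58.1 (R 4.3.3, intensity trend, Benjamini-Hochberg). Thresholds were an adjusted p of 0.05 and an absolute log2 fold change of 0.5. Fold changes on this scale understate the change of low genes. Single genes were also tested by exchanging labels within the sets (exact, 160000 relabelings, two-sided), and pairs by 100000 resamples (Python 3.11.15, scipy 1.17.1). Separate animals are implied by the labels. The scripts were tested on simulated data. No member's transcripts share a 150-base stretch with another gene in GENCODE vM21. Gene lists and members were chosen with earlier results of these data known. Named were all members, the largest 2 increases and decreases that passed in each list with exceptions, and the 3 genes most like each member, of which 1 is not reported here. Alternatives were another pseudocount, filter or scaling, no trend, a rank-sum test, a set term, a replicate block and left-out samples. Leaving out both libraries highest in atrial markers was added after seeing the data.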

Additional observations from a re-analysis of the deposited data

How the results depend on the processing

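The number of members past the adjusted p was 5. It was 3 with the replicate block, 2 without samples 4 to 6 and 3 without samples 10 to 12, and 4 to 7 when 1 mouse was left out. The number past both criteria was 2, and it was 1 after quantile normalization, 4 without samples 1 to 3 and 2 to 3 when 1 mouse was left out. Over all genes, 4697 passed the adjusted p, against 2824 with the replicate block, 2810 without samples 4 to 6 and 3547 without samples 10 to 12. It was 4038 to 5160 when 1 mouse was left out. Both criteria were passed by 831 genes, against 1489 with a pseudocount of 0.1, 553 without samples 4 to 6 and 715 to 979 when 1 mouse was left out. Quantile normalization reversed the log2 fold changes of Actc1 to 0.074, of Tnnt2 to 0.12 and of Tpm1 to 0.097. After median-ratio scaling they were -0.35, -0.12 and -0.25. Quantile normalization sets values by rank, and these genes stood at places 1 to 8 by mean FPKM, so it mainly compares their places. The causes were not tested. Fits without another set had the same number of samples, and without samples 1 to 3, for example, 6 members and 4165 genes passed the adjusted p. Acta1 and Tnni3 kept their direction and their call at the adjusted p in every alternative fit.

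Samples of the 2 groups share replicate numbers, and whether the numbers pair them could not be decided from the deposited values. Deviations of same-numbered samples from their group means had correlations of -0.56 to -0.0011 over genes tested, none above 0.1, and 0 of 12 ANG II samples correlated best with the control sample of their number. Because same-numbered samples share a set and the values had been adjusted by set, these correlations cannot tell whether the mice were paired. The replicate block left Acta1, Tnni3 and Tnnt1 past the threshold. The absence of counts limits what can be said of Tnni1, whose values lie under 2 FPKM.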
